A study of Mus musculus with 2 samples.

Results

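In 27 genes of gastrocnemius muscle from female mice, the quantifier RSEM gave the largest share of the gene's length-scaled level to a transcript annotated as retained_intron. The same transcript held at least 50% in both libraries in 13 of the 27 by a second quantifier, kallisto. By RSEM's expected counts it did so in 11. The genes were selected on the deposited RSEM values. A gene had to reach a level of 10 TPM (reads per unit of transcript length, scaled to the same total in each library) in both libraries, to have at least 1 protein_coding transcript, and to have 1 retained_intron transcript with at least 50% of the gene's TPM in both. Of 55450 annotated genes, 3880 met the first 2 conditions once some large families had been left out by symbol, and 2508 of these had a retained_intron transcript. The 27 genes are 1.08% of the 2508, and nothing is read from that share because the rule set it.

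The data were 2 total RNA-seq libraries from the gastrocnemius, a calf muscle, of female B6Cast F1 mice (strain B6CASTF1/J), labelled 18 to 20 months old and biological replicates 1 and 2. The labels name no treatment, and each library took 300 ng of input RNA and ERCC spike-ins of the kind for ribosome-reduced libraries. There was 1 group, so the values are described over 2 libraries and no condition was compared. Expected counts of genes summed to 38654555 in replicate 1 and 43722892 in replicate 2. The 8 myofibre markers summed to 110752 and 103484 TPM, against 0.150 and 0.180 TPM for the 4 T-cell markers, of which 3 were at 0 in both libraries. Markers of other cells that muscle holds lay between these, at 382 and 350 TPM for fibro-adipogenic cells, 291 and 279 TPM for erythrocytes, 107 and 118 TPM for adipocytes, and from 8.49 to 40.1 TPM for endothelial, Schwann, satellite and macrophage markers. The libraries stood apart in slow-fibre genes, which the 8 myofibre markers do not hold: 7 such genes, a list chosen after the data were seen, summed to 399 TPM in replicate 1 and 2152 in replicate 2, and all 7 were higher in replicate 2. None of the 27 genes is one of these markers, and the part of these other cells or of fibre type in the values was not tested.

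Introns are normally removed by the spliceosome, which recognises a donor site beginning with GT and an acceptor site ending with AG. An RNA that keeps an intron is often held in the nucleus, and if exported it can carry an early stop codon and be degraded. Total RNA libraries sample unspliced nuclear RNA as well as mature mRNA. In the GENCODE annotation the type retained_intron is given to a transcript model that holds sequence which is intronic in other models of the gene, and such a model need not be complete at either end.

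The annotation shows that most of the 27 models do not hold a whole intron. Only 5 of them (18.5%) contained a complete intron of a protein-coding transcript from donor to acceptor, compared with 658 of 2508 (26.2%) when the leading retained_intron model of every gene was examined. In 19 of the 27 (70.4%) the model began inside an intron and ran through the acceptor into the next exon, against 948 of 2508 (37.8%) over all genes. A stretch that left an exon through its donor and ended inside the intron was present in 3 models (11.1%), and in 1153 (46.0%) of all. These differences were not tested, since the members were chosen on their measured values. The name "retained intron" therefore describes the annotation type of these transcripts. In 22 of the 27 genes the model holds no whole intron of a coding transcript.

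The 5 models with a whole intron belonged to Ncl, Rsrp1, Atg4d, Samm50 and Rpp21. Ncl (ENSMUSG00000026234.12) encodes nucleolin, a nucleolar protein of ribosome biogenesis, and its model Ncl-202 held introns 9 and 10 of the 13 of Ncl-201, at chr1:86352634-86353125 and chr1:86352320-86352509 on the minus strand of mm10, 492 and 190 bases long. Rsrp1-204 held intron 3 of 4, 1302 bases, at chr4:134925433-134926734 (plus strand). Atg4d-203 held intron 4 of 9, 77 bases, at chr9:21268528-21268604 (plus strand). It also had a separate exon of 125 bases inside intron 5 (chr9:21269303-21269427), which reached neither end of that intron. Samm50-205 held intron 6 of 14, 206 bases, at chr15:84200424-84200629 (plus strand). Rpp21-205 held intron 1 of the 4 of Rpp21-201, 76 bases, at chr17:36257707-36257782 (minus strand). All 6 introns lie between coding exons, and all 6 begin with GT and end with AG, as did 950 of 979 (97.0%) of those in the leading models of all genes. Their median length was 198 bases and their median GC content 47.1%, against 265 bases and 51.3% for the 979. A selection of 3 is shown with 10 bases of exon on either side because these introns are a part of the model that a spliced mRNA lacks. GT and AG of the splice sites are in capitals, and the sequences are from the GENCODE M21 transcripts.
Ncl-202, intron 10: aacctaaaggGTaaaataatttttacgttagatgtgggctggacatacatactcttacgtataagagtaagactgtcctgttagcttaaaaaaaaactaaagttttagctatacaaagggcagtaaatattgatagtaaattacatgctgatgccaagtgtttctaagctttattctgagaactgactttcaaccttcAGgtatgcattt
Atg4d-203, intron 4: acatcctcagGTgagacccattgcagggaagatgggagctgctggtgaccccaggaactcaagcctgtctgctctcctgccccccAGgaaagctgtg
Rpp21-205, intron 1: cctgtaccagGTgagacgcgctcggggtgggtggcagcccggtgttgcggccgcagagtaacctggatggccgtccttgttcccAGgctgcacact
The Atg4d and Rpp21 introns are short and GC-rich (62.3% and 68.4%), whereas the Ncl intron is AT-rich (32.6% GC).

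The more common kind was a model that starts within an intron. Chchd10-202 opened with the last 87 bases of intron 2 of Chchd10-201 (chr10:75937220-75937306, plus strand), 10.1% of that intron, and went on into the last 2 exons. Cox7b-203 opened with the last 188 bases of intron 1 (chrX:106019391-106019578, plus strand), 5.07% of it. Taf10-202 opened with 98 of the 102 bases of intron 1 (chr7:105743985-105744082, minus strand), 4 bases short of the donor. These 3 are shown from the first base of the model to 10 bases past the acceptor, whose AG is in capitals. The bases up to and including that AG are the ones of each model that lie outside coding exons. They were 21.5%, 35.7% and 16.3% of the length of the Chchd10, Cox7b and Taf10 models.
Chchd10-202, 5' end: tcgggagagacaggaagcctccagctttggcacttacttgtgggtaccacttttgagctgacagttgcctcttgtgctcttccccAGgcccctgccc
Cox7b-203, 5' end: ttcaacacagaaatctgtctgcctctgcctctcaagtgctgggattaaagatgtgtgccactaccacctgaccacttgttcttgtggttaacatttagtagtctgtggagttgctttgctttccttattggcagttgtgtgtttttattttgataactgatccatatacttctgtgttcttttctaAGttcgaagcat
Taf10-202, 5' end: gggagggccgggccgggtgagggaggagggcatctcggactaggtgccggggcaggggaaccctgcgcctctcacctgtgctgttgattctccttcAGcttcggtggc
The shortest such openings were 19 bases in Ufm1, 20 in Grcc10 and 26 in Tbcb. The others were those of Pdcl3 (85 bases), Ptges2 (67), Rbm8a (211), Dctn6 (66), Gabarapl2 (92), Atp6v1d (87), Ctsb (90), Itm2b (78), Atp5j (100), Cst6 (57), Rnaseh2c (40), Ppp1r14b (95) and Uxt (129). In Atp5j and Uxt the intron was not between coding exons. Myl12b-202 and Gm37240-202 instead ended inside an intron, 112 and 49 bases past a donor, and Ctsb-202 ended 1 base past one. The Gm37240 intron was not between coding exons either.

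Timm17a was a case of its own. Its model Timm17a-204 differed from the exons of coding transcripts by 4 bases at chr1:135309767-135309770 (minus strand), the first bases of intron 2, so that the model used a donor just downstream of the coding one. The junction is shown with the 4 extra bases between 10 bases of either exon, and the GT of the coding donor is in capitals.
Timm17a-204, junction: ttctccagtgGTgaggaataaacc
No intron was held by this model beyond those 4 bases, 0.708% of its length.

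**Figure D1:**
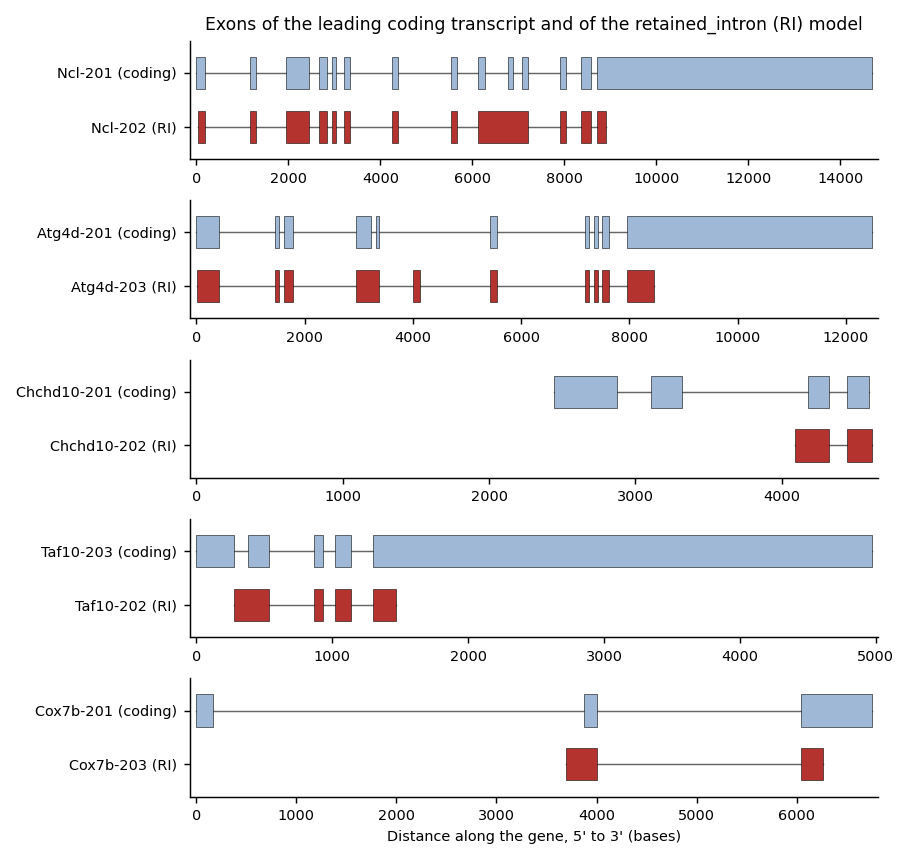
Exons (boxes) of the leading coding transcript (blue, above) and of the retained_intron model (red, below) of 5 genes, drawn 5' to 3' by distance along the gene in bases. Ncl-202 joins 3 coding exons into 1 block by holding introns 9 and 10, and Atg4d-203 holds intron 4, while Chchd10-202, Taf10-202 and Cox7b-203 begin inside an intron.

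Most of each model was shared with coding exons. The bases outside the exons of every coding transcript of the gene numbered 87.0 in the median model, from 4 in Timm17a to 1302 in Rsrp1, and made up 13.1% of its length (0.708% to 42.7%). The leading models of all 2508 genes had a median of 300 such bases and 37.4%. In 18 of the 27 genes fewer than 100 bases lay outside coding exons. In Samm50 and Rnaseh2c every base of the model was also in some other transcript of the gene, and in Rsrp1 only 13 bases were not, so the value of the model there rests on how reads were divided between overlapping models.

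**Figure D2:**
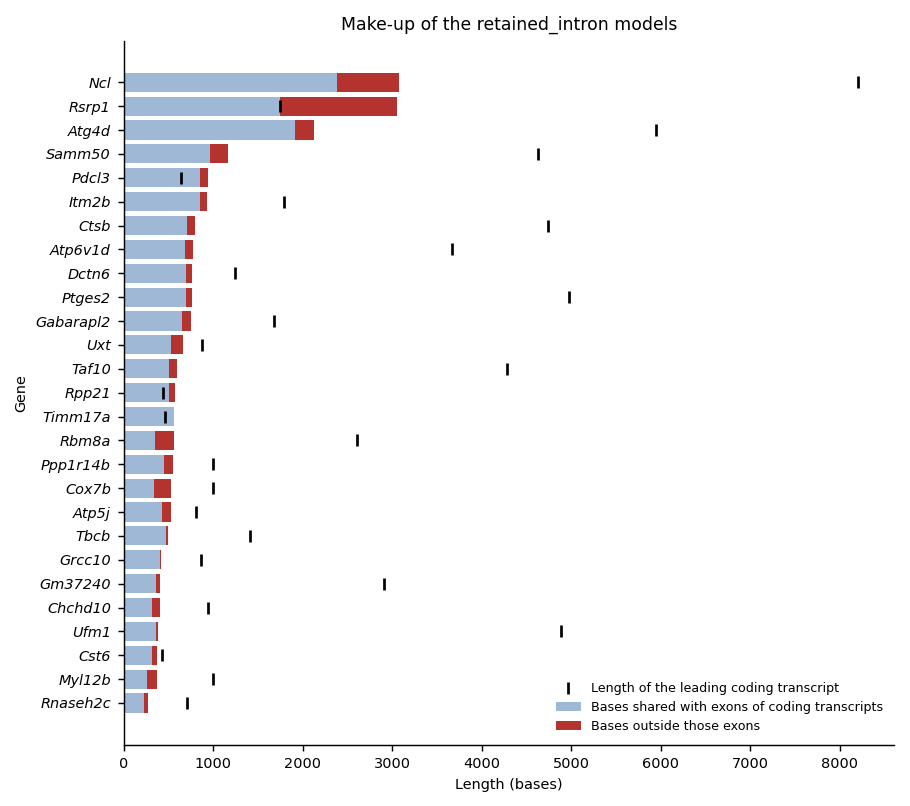
Length in bases of the retained_intron model of each gene, split into bases shared with exons of coding transcripts (blue) and bases outside them (red); the tick marks the length of the leading coding transcript. Models run from 271 bases in Rnaseh2c to 3072 in Ncl, and 23 of 27 are shorter than the leading coding transcript.

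The models were also short. Their median length was 579 bases, against 1416 for the coding transcript with the highest TPM in the same gene. The median ratio was 0.431, and it ran from 0.0779 in Ufm1 to 1.74 in Rsrp1, with 23 of 27 (85.2%) below 1. Over all 2508 genes the ratio was much the same, 0.413, with 81.0% below 1. Of the 27 models, 25 (92.6%) ended short of the furthest 3' end of the gene's coding transcripts, against 94.9% of the 2508. In Taf10 the model ended at base 1466 of the gene and the leading coding transcript at base 4969. In Grcc10 these ends were at 2188 and 2192. The 4 models longer than their coding partner were those of Rsrp1, Pdcl3, Rpp21 and Timm17a. Against the longest coding transcript of the gene, only that of Rsrp1 stayed longer, at 1.74. The ratio was then 0.794 for Rpp21, 0.241 for Pdcl3 and 0.0776 for Timm17a. A polyadenylation hexamer (AATAAA or ATTAAA, searched on the transcript strand) lay in the last 50 bases of 16 of the 27 models (59.3%), compared with 617 of 2508 (24.6%). A match is a description of these letters and was not tested as a site of cleavage. The genes had a median of 4 annotated transcripts, against 7 for all 2508.

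Because TPM divides reads by length, a short model takes a larger share of a gene's TPM than of its reads. The median share over the 27 genes was 67.2% of RSEM TPM (the quantity of the rule, 69.5% in replicate 1 and 63.6% in replicate 2), and 40.2% of RSEM expected counts (42.7% and 38.3%). The share of counts was below the share of TPM in 23 genes, and above it in Rsrp1, Pdcl3, Atg4d and Rpp21. It reached 50% in both libraries in 11 of the 27 genes and lay under 50% in both in 15. The condition was met by 0.678% of the 2508 genes, and the 27 genes were chosen on shares of the same RSEM fit, so the 2 figures are not independent. The widest difference was in Ufm1, an ubiquitin-like modifier, whose 381-base model held 74.4% and 70.0% of TPM but 15.5% and 12.6% of counts, beside a coding transcript of 4890 bases.

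Kallisto, which assigns reads to the same annotation without aligning them to the genome, was not used by the rule, although it was run on the same reads and is not a replicate. The same model held a median of 49.8% of kallisto TPM (47.2% in replicate 1 and 51.1% in replicate 2). It held at least 50% in both libraries in 13 of the 27 genes, was below 50% in both in 13, and passed in 1 library only for Tbcb. Over all 2508 genes with a retained_intron transcript, 1.44% had one at 50% or more by kallisto. In 8 of the 27 genes kallisto gave the model under 25% in both libraries, and in 3 of these, Grcc10, Rnaseh2c and Rpp21, it gave 0 in both. The quantifiers differed by a median of 18.0 percentage points over the 27 genes, and were within 10 points in 8 of them and over 30 points apart in 9. No comparison with other genes is drawn from these gaps, because selection on a high RSEM share leaves room for wide ones. By kallisto the coding transcripts held less than 50% of TPM in both libraries in 15 of the genes and at least 50% in both in 11. Only 4 genes, Ncl, Atg4d, Cst6 and Uxt, had their model at 50% or more by all 3 measures in both libraries.

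The gene totals of the tools also differed in some members. The gene's kallisto count was a median of 1.02 times its RSEM count, and within a factor of 1.2 in 22 of the 27 genes, from 0.642 in Cox7b to 1.45 in Gm37240. Over all genes with a retained_intron transcript the median was 1.06, and 95.7% were within that factor. RSEM's own interval for the model's TPM was a median of 23.7% of the value wide in replicate 1 and 23.9% in replicate 2. It was narrowest for Atp5j (6.42% and 5.28%), although kallisto gave the coding transcripts of that gene 82.6% and 90.7%.

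**Figure D3:**
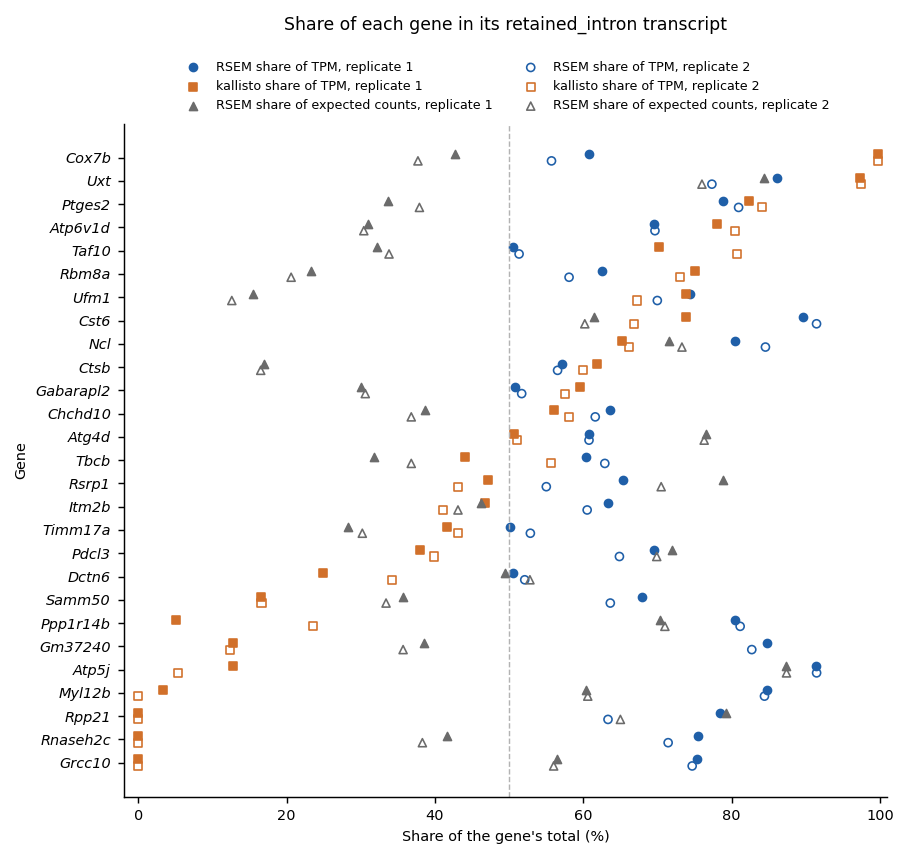
Share (%) of each gene held by its retained_intron model, as RSEM TPM (circles, used by the rule), kallisto TPM (squares) and RSEM expected counts (triangles); filled symbols are replicate 1, open symbols replicate 2, and the dashed line marks 50%. The circles all lie at or above 50%, while the squares run from 0 in Grcc10, Rnaseh2c and Rpp21 to 99.8% in Cox7b.

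The members include 5 nuclear genes of mitochondrial proteins, whose gene TPM summed to 1324 in replicate 1 and 1664 in replicate 2, and 3 of these, Chchd10, Atp5j and Cox7b, were the most abundant of the 27. Chchd10, a protein of the intermembrane space, stood at 469.5 and 621.7 TPM. Its model held 63.6% and 61.6% by RSEM (62.6% ± 1.37, SD, n = 2), 56.0% and 58.1% by kallisto, and 38.6% and 36.8% of counts. The 2 quantifiers thus put similar shares in a model whose only own sequence is the 87 bases printed above. The gene overlaps Gm867 on the opposite strand.

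Atp5j, a subunit of the ATP synthase, and Cox7b, a subunit of cytochrome c oxidase, went opposite ways between the tools. Atp5j had 366.8 and 478.4 TPM, and Atp5j-208 held 91.3% and 91.5% by RSEM but 12.8% and 5.37% by kallisto, which gave 72.7% and 82.3% to the coding transcript Atp5j-203. Cox7b had 308.0 and 365.1 TPM, and Cox7b-203 held 60.8% and 55.7% by RSEM but 99.8% in both libraries by kallisto. By kallisto the coding transcripts of Cox7b were left with 0.201% and 0.151%. Kallisto also gave Cox7b 0.642 times the reads that RSEM did.

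Timm17a, of the inner-membrane import channel, had 114 and 122 TPM. The model with 4 extra bases held 50.1% and 52.9% by RSEM, 41.6% and 43.1% by kallisto, and 28.3% and 30.2% of counts. Samm50, of the outer-membrane sorting machinery, had 65.8 and 76.3 TPM, with 67.9% and 63.6% by RSEM but 16.6% in both by kallisto. There kallisto placed 57.7% and 57.0% in another retained_intron model, Samm50-204, so that all such models together held 75.1% and 74.4%. Samm50 is the gene in which the tools gave different models of the same type the lead.

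Of the members, 5 were grouped as lysosome, autophagy and protease inhibitor. Kallisto passed 50% in both libraries for all 5, and for 13 of all 27. The groups were drawn with earlier results of these data known, so nothing is read from this count. Ctsb, the lysosomal protease cathepsin B, had 80.9 and 96.3 TPM, with shares of 57.1% and 56.5% by RSEM, 61.9% and 59.9% by kallisto, and 16.9% and 16.5% of counts. Gabarapl2, an Atg8-family protein of the autophagosome, had 44.6 and 40.03 TPM, with 50.8% and 51.7% by RSEM and 59.6% and 57.5% by kallisto. Atp6v1d, a subunit of the proton pump that acidifies lysosomes, had 31.9 and 28.2 TPM, with 69.6% and 69.7% by RSEM and 78.0% and 80.5% by kallisto. All 3 models start within an intron, and their share of counts was between 16.5% and 30.9%.

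Atg4d, a protease that processes Atg8 proteins, had 27.9 and 28.4 TPM. Atg4d-203 held 60.8% in both libraries by RSEM, 50.6% and 51.1% by kallisto, and 76.6% and 76.3% of counts. A second retained_intron model, Atg4d-205, held another 34.6% and 34.4% by RSEM, which left 2.67% in each library for coding transcripts. Kallisto gave coding transcripts 2.08% and 1.98%. Among the members, Atg4d is thus one in which both tools gave nearly all of the gene's TPM to models of this type. TPM divides reads by length, and the coding transcript Atg4d-201 has 5951 bases against 2123 in Atg4d-203. The leading retained_intron model of Atg4d holds a whole intron of 77 bases and a separate exon of 125 bases inside another intron. Cst6, the secreted inhibitor cystatin E/M, had 26.4 and 20.9 TPM, with 89.6% and 91.4% by RSEM, 73.9% and 66.8% by kallisto, and 61.4% and 60.2% of counts.

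A group of 6 members acts on RNA or in the nucleus. Ncl had 55.4 and 43.5 TPM, and Ncl-202, with its pair of whole introns, held 80.5% and 84.6% by RSEM (82.5% ± 2.89, SD, n = 2), 65.2% and 66.2% by kallisto, and 71.6% and 73.3% of counts. The model has 682 bases in no other transcript of the gene, the largest number among the 27. Rsrp1, a protein rich in arginine and serine, had 76.6 and 67.9 TPM, with 65.35% and 55.01% by RSEM, 47.2% and 43.1% by kallisto, and 78.8% and 70.5% of counts. By kallisto its coding transcripts held 6.91% and 14.6%, and nearly all of the rest was in models of other annotation types.

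Taf10, a subunit of TFIID and SAGA, had 42.7 and 43.1 TPM, with 50.5% and 51.3% by RSEM and 70.2% and 80.7% by kallisto. A second retained_intron model, Taf10-204, held 28.9% and 26.1% by RSEM, and coding transcripts held 8.63% and 7.77%. Taf10 overlaps Ilk on the opposite strand. Rbm8a, the exon junction complex protein Y14, had 13.3 and 10.7 TPM, with 62.5% and 58.1% by RSEM and 75.0% and 73.0% by kallisto, but 23.3% and 20.6% of counts. In Rpp21, a subunit of RNase P, and Rnaseh2c, a subunit of RNase H2, kallisto gave the model 0 in both libraries. Rpp21 had 18.7 and 19.5 TPM and an RSEM share of 78.4% and 63.3% (70.9% ± 10.7, SD, n = 2), and kallisto gave 100% and 85.6% to the coding transcript Rpp21-201. Rnaseh2c had 21.8 and 22.0 TPM and 75.5% and 71.4% by RSEM.

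Among cytoskeletal proteins and chaperones, Uxt, a prefoldin-like protein on the X chromosome, had 14.3 and 15.3 TPM. It was high by all measures, with 86.2% and 77.3% by RSEM, 97.3% and 97.5% by kallisto, and 84.4% and 76.0% of counts. Myl12b, a regulatory light chain of nonmuscle myosin, had 33.1 and 41.2 TPM. Its model held 84.7% and 84.4% by RSEM but 3.32% and 0 by kallisto, where coding transcripts held 96.7% and 99.1%. Another annotated gene of the same symbol overlaps it on the same strand, and its counts were fractional.

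Pdcl3, a cochaperone of the phosducin family, had 33.9 and 32.7 TPM, with 69.6% and 64.9% by RSEM and 38.0% and 39.9% by kallisto. Dctn6, a dynactin subunit, had 34.1 and 25.4 TPM, with 50.5% and 52.1% by RSEM and 24.9% and 34.2% by kallisto. Tbcb, a tubulin-folding cofactor, had 14.1 and 13.0 TPM, with 60.4% and 62.9% by RSEM and 44.0% and 55.7% by kallisto. Tbcb had the widest RSEM interval relative to its value in replicate 1, from 5.60 to 10.3 TPM, and Rbm8a in replicate 2, from 4.51 to 7.78 TPM.

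The enzyme, signalling and membrane genes were Itm2b, Ppp1r14b, Ufm1 and Ptges2. Itm2b, a membrane protein also called BRI2, had 135 and 123 TPM, with 63.3% and 60.5% by RSEM and 46.7% and 41.1% by kallisto. Ppp1r14b, an inhibitor of protein phosphatase 1, had 67.7 and 51.2 TPM, with 80.4% and 81.2% by RSEM but 5.01% and 23.6% by kallisto. It overlaps Plcb3 on the opposite strand. Ptges2, a membrane-associated prostaglandin E synthase, had 12.04 and 16.25 TPM, with 78.8% and 80.9% by RSEM and 82.4% and 84.1% by kallisto. Ufm1 had 18.5 and 15.9 TPM, and kallisto gave its model 73.9% and 67.2%, close to the shares of RSEM TPM given above.

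Grcc10 and Gm37240 were put in no functional group. Grcc10 had 67.9 and 71.0 TPM and an RSEM share of 75.3% and 74.7%. Kallisto gave its model 0 in both libraries and the coding transcript Grcc10-201 91.2% and 92.9%, and the 20 intronic bases at the 5' end are the only ones of the model outside coding exons. Gm37240 had 15.6 and 14.9 TPM, with 84.8% and 82.7% by RSEM and 12.8% and 12.4% by kallisto. It overlaps Fam160a1 and Glt28d2 on the same strand. In all, 4 members overlap a gene on their own strand (also Samm50, with Gm49513, and Grcc10, with Gm45234), 6 overlap one on the opposite strand only, and 17 overlap none. The opposite-strand overlaps not named above were Atg4d with Kri1, Uxt with A230072C01Rik and Dctn6 with Gm26768. Whether the counting used the strand is not given in the sources used here. Gene counts were fractional in 9 members and whole in 18.

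No member's gene total differed by 2-fold or more between the 2 libraries after TMM scaling. Of the 12969 genes whose counts in both libraries summed to 50 or more, 602 (4.64%) did. The rule asked for 10 TPM in both libraries, which those genes need not reach, so nothing is read from the difference. All 27 were within 1.5-fold, as were 86.3% of all genes. The median log2 ratio of replicate 2 over replicate 1 was 0.15, from -0.33 in Dctn6 to 0.58 in Chchd10, where the median over all genes was 0. The counting interval of the fold included 1 in 13 genes, lay above it in 10 and below it in 4. Over all 12969 genes the interval lay above 1 in 24.1% and below 1 in 22.3%, and it narrows with the count of a gene. With spike-in totals as the scale, the median was -0.07 for the members and -0.22 for all genes.

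All 5 mitochondrial members were higher in replicate 2 than in replicate 1. Of all 27 members, 18 had a scaled log2 ratio above 0, as did 49.8% of all genes. The groups were drawn with earlier results of these data known, so nothing is read from the count of 5. Slow-fibre genes were also higher in replicate 2. Myh7, the slow myosin heavy chain, was at 65.8 and 409 TPM, and Tnnt1, slow troponin T, at 50.2 and 329 TPM. The part of slow-fibre genes in the result was not tested. Chchd10 had 6843 counts in replicate 1 and 10444 in replicate 2, a scaled log2 ratio of 0.58 (95% counting interval of the fold 1.45 to 1.54). The fold was 1.45 for Atp5j, 1.36 for Cox7b, 1.29 for Samm50 and 1.17 for Timm17a, and each interval lay above 1. All 5 remained above 0 on the log2 scale with spike-in totals, Timm17a at 0.01. Other members with intervals above 1 were Ptges2 (1.37), Myl12b (1.37), Ctsb (1.33), Grcc10 (1.16) and Atg4d (1.13), of which Grcc10 and Atg4d fell below 0 on the log2 scale with spike-in totals, at -0.01 and -0.05. Dctn6 (0.797), Ppp1r14b (0.840), Ncl (0.893) and Rsrp1 (0.925) had intervals below 1. In bulk muscle, fewer cells of a type and less RNA per cell cannot be told apart, and these intervals cover counting error only.

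**Figure D4:**
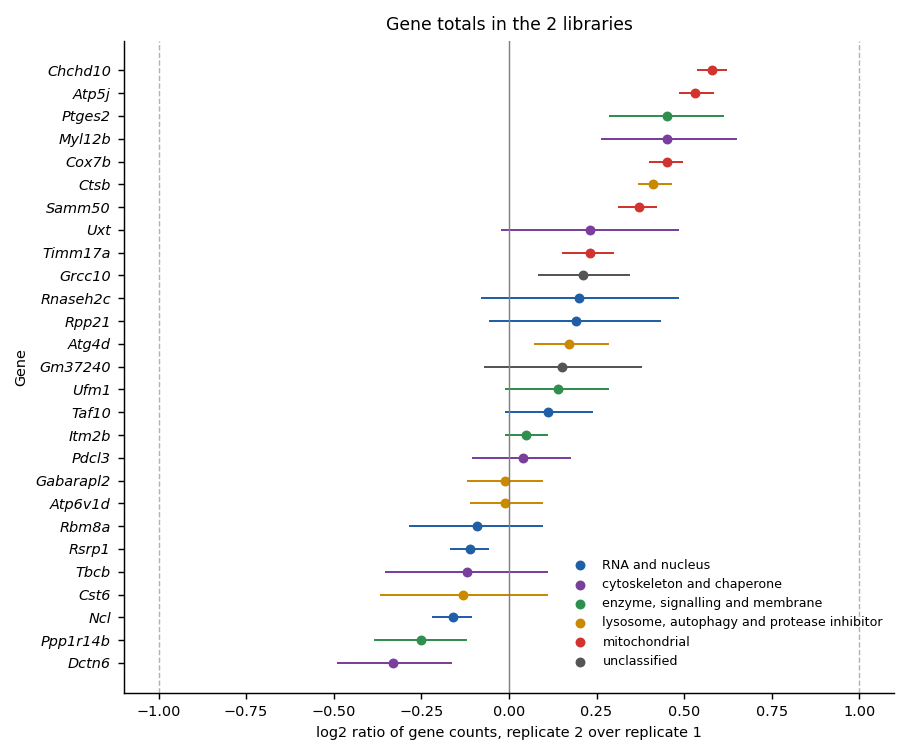
log2 ratio of gene counts, replicate 2 over replicate 1 after TMM scaling, with the 95% counting interval (bars) for the 27 genes, coloured by role; dashed lines mark 2-fold. All points lie inside the dashed lines, and the 5 mitochondrial genes (red) lie between 0.23 and 0.58.

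Between libraries, the RSEM share, which the rule held at 50% or more in both, was higher in replicate 2 in 11 genes and lower in 16. It moved by a median of 2.10 percentage points in size, and by under 5 points in 23 genes. Only Rpp21 (-15.1 points) and Rsrp1 (-10.3 points) moved by 10 points or more, and the median SD over the 2 libraries was 1.48 points. The genes nearest to the threshold on the inside were Timm17a (50.12% and 52.86%), Dctn6 (50.46% and 52.1%), Taf10 (50.47% and 51.34%) and Gabarapl2 (50.8% and 51.69%). Just outside were Nol7 (49.7% and 49.48%), Mbd2 (49.75% and 49.1%), Nmd3 (49.12% and 49.1%) and Capns1 (55.75% and 48.49%). The distance from Nol7 to Timm17a is smaller than the median movement between the libraries in replicate 1, and larger than it in replicate 2.

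Lists of genes that act in splicing, a class known for regulated intron retention, held 1 member. Rbm8a, the exon junction complex protein among the members, was on none of these lists. Only 1.08% of the 2508 genes with a retained_intron transcript were members, so nothing is read from how many members lists this short hold. Of 15 SR proteins and partners at 10 TPM or more, 13 had a retained_intron transcript and 1, Rsrp1, was a member. Their median share in the leading such model was 9.96% by RSEM and 9.60% by kallisto, against 2.35% and 1.74% over all 2508 genes. The 8 kinases of splicing factors had no member and medians of 14.4% and 10.8%. Srpk1, which phosphorylates SR proteins, had 28.0% and 21.3% by RSEM, and Clk1, whose retained introns are well known, had 15.87% and 11.01%. The median RSEM share was 1.98% for 12 hnRNP genes, 3.22% for 13 genes of the U1, U2 and minor spliceosomes, 7.86% for 2 of nonsense-mediated decay and 3.15% for 4 of nuclear RNA retention, with no member in these 4 lists.

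The lists of contractile and glycolytic genes of the muscle fibre also held no member. With members at 1.08% of the 2508 genes, this is not read as a result about these lists. All 26 sarcomere and calcium-handling genes reached 10 TPM, 17 had a retained_intron transcript, and their median share was 0.870% by RSEM and 0.657% by kallisto. Mylpf, the fast-fibre regulatory light chain, had the highest share by RSEM, where its model Mylpf-203 held 31.83% and 30%, and 0 in both by kallisto. Tnni2, fast skeletal troponin I, had the highest share by kallisto, where Tnni2-203 held 55.5% and 56.7%, against 0.32% and 0.4% by RSEM. Of 18 glycolysis and glycogen genes, 13 had such a transcript, with medians of 0.540% and 2.69%. Phka1, the muscle subunit of phosphorylase kinase, stood highest there with 29.4% and 31.1% by RSEM.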

How the data were processed

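The 2 libraries form 1 group of 2 biological replicates, per the labels; the donor identifier they share names a strain, and separate animals are taken from the tissue sample labels. Expected counts of genes and transcripts, TPM, the bounds of its interval (level not stated) and IsoPct (percent of the gene's TPM per transcript) were deposited by the authors with the column names of RSEM, per the file headers. Estimated counts and TPM per transcript in a further deposited table have the column names of kallisto, and its transcript names give the annotation type. The build is mm10, per the labels, and the annotation used here is GENCODE M21; which aligner was run, and which release of either quantifier, is not given in the sources used here for these tables.

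The members, roles and gene lists were chosen with earlier results of these data known. Models were compared with the exons of all protein_coding transcripts of the gene in GENCODE M21. All members are named, those of highest TPM and of highest and lowest shares with full values, and 4 genes were taken on either side of the threshold. Kallisto and count shares were computed from summed transcript values. Gene counts were rounded, and edgeR 4.0.16 (R 4.3.3) gave TMM factors and log2 ratios with a prior count of 2, for all genes whose summed count reached 50; DESeq2 1.42.0 size factors, spike-in totals, no filter, another prior count and kallisto counts were alternatives. The 95% interval of a fold is the exact binomial one, conditional on the summed count. The ratio step was tested on simulated data. No p-value was computed, since there is 1 group. Tables were handled in Python 3.11.15 with pandas 2.3.3 and numpy 2.4.6, intervals with scipy 1.17.1 and plots with matplotlib 3.10.9. Reads that fit several models are divided by each tool's model, so transcript values carry an error that counting intervals do not cover.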

Additional observations from a re-analysis of the deposited data

How the results depend on the processing

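The number of genes that met the rule was 27. It became 56 with a minimum share of 40%, 46 with all retained_intron transcripts of a gene summed, and 17 with shares of expected counts, of which 11 were among the 27. It was 5 when the model had to hold a whole coding intron, an alternative chosen after seeing the data. Minimum gene TPM of 5 and 20, a share of 60%, posterior mean TPM and kallisto shares gave 40, 20, 19, 26 and 36 genes, and the kallisto set held 14 of the 27 (13 with the same model and Samm50 with another). Using 1 library gave 31 and 34. The median length ratio of 0.431 became 0.367 with RSEM's effective lengths and 0.272 against the longest coding transcript; both use a different length by construction. Leaving out a library gave medians of 63.6% to 69.5% for the RSEM share, 47.2% to 51.1% for kallisto and 38.3% to 42.7% for counts. The count at 50% by kallisto, 13, was 17 at 40% and 9 at 60%. No member differed by 2-fold between libraries in edgeR's TMM scaling or under any of the 5 alternatives, and the median log2 ratio ran from -0.07 (spike-in totals) to 0.19 (kallisto counts). No paired analysis was possible because there is 1 group. With 2 libraries the SD is imprecise. The error of dividing reads between overlapping models is not in the counting intervals and was not tested.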

Other observations

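Kallisto put 50% or more of TPM in a retained_intron transcript in both libraries in 36 genes, of which 22 were not members. Among these were abundant genes of the muscle fibre and its mitochondria. Tnni2 had 9550 and 8434 TPM. Atp5k and Atp5l, subunits of the ATP synthase, had such models at 99.7% and 99.8%, and at 66.0% and 67.4%, by kallisto, where RSEM gave 1.55% and 1.6% for Atp5k and 0.06% and 0 for Atp5l. Cycs, cytochrome c, had 90.1% and 89.8% by kallisto and 7.32% and 3.04% by RSEM.

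In other genes the tools were closer. Hadhb, of mitochondrial fatty acid oxidation, had 55.5% and 58.8% by kallisto and 27.8% and 31.8% by RSEM. Nol7 and Ube2r2 had 59.1% and 56.8%, and 57.4% and 57.6%, by kallisto and lay under 50% by RSEM, at 49.7% and 49.48%, and at 49.42% and 46.29%. The genes named here were chosen after their values were seen. Which tool is nearer to the RNA in the tissue was not tested.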
